A study of Homo sapiens with 6 samples.

Results

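*SLC38A10* and 9 other amino acid transporter genes were followed through a pull-down of the long non-coding RNA CyCoNP. The recovery of *SLC38A10* was high, and 0 of the other 9 were called against input with edgeR. Since 0.127% of all tested genes were called there, 0 of 9 says little about these genes. These 10 genes, of 60676 entries in the count table, were chosen by name. *SLC38A10* was selected on its high recovery in CyCoNP PD in these same libraries, so its values are given as a description, without a test. The others are the 4 SLC38 relatives *SLC38A1*, *SLC38A2*, *SLC38A7* and *SLC38A9*, the large neutral amino acid exchanger *SLC7A5* with its heavy chain *SLC3A2*, the glutamine exchanger *SLC1A5*, the cationic amino acid transporter *SLC7A1* and the cystine-glutamate exchanger *SLC7A11*. All 10 have a row in the table and passed the minimum of 10 counts over the libraries, as did 12565 genes in all. The question was whether the recovery of *SLC38A10* with CyCoNP was shared by transporters of related function.

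The cells were SK-N-BE, an established line from a human neuroblastoma, which had differentiated for 1.5 days in medium with 10 μM retinoic acid and 2.5% serum. All groups share this line and treatment, and no group carries a mutation or a knockdown. The 6 libraries are 2 of the extract before the pull-down (input), 2 of the RNA recovered with biotinylated antisense probes against CyCoNP (CyCoNP PD) and 2 of the RNA recovered with probes against LacZ, a bacterial gene that these cells lack (LacZ PD). The extract was not cross-linked. Dextran sulfate was added to both kinds of pull-down and the input was withdrawn before the probes, so LacZ PD shares the handling of CyCoNP PD and input does not. More PCR reactions were pooled for the pull-downs than for input.

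Amino acid transporters of the SLC38 family are sodium-coupled carriers of small neutral amino acids, above all glutamine. *SLC38A1* and *SLC38A2* act at the plasma membrane, whereas *SLC38A7* exports glutamine and asparagine from lysosomes and *SLC38A9* is a lysosomal arginine sensor that signals to mTORC1. *SLC38A10* is a less studied member of the family, for which transport of glutamine, glutamate and aspartate was described. In neuroblastoma, glutamine uptake and cystine uptake feed growth and the defence against oxidation.

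The libraries held 18870 to 1512148 counts, and the deepest was 80.1 times as deep as the shallowest, LacZ PD 1. A gene reached 3 counts, taken here as the limit that a count of 0 allows, at 1.98 to 5.83 CPM, the count scaled to a common library total, in input and CyCoNP PD, at 159 CPM in LacZ PD 1 and at 21.4 CPM in LacZ PD 2. CyCoNP itself, listed as *LINC02381*, had 20 and 39 input counts, 11687 and 3507 counts in CyCoNP PD, and 1 and 20 counts in LacZ PD. Neuroblastoma markers were detected in all libraries, 10 to 13 of 13 genes with a summed level of 2795 to 4095 CPM. A list of 9 mesenchymal and Schwann cell markers differed between the replicate numbers in each group. Its summed level was 360 to 515 CPM in the replicate 1 libraries and 14.3 to 21.5 CPM in the replicate 2 libraries. The collagen gene *COL1A1* had 192, 186 and 4 counts in replicate 1 of input, CyCoNP PD and LacZ PD, and 10, 3 and 1 in replicate 2, while the Schwann lineage gene *SOX10* was at 0 in the 6 libraries. Replicate 1 and 2 differences in the transporters are given below, and the part of these markers in them was not tested.

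Exact complements of these RNAs were searched in the probes and in CyCoNP. Recovery by other routes was not examined. The study's list holds 22 probes of 20 bases against CyCoNP and 5 against LacZ. The probe with the longest exact complement to a transcript of *SLC38A10* is shown because a probe that pairs with an mRNA can retrieve it directly. The capitals mark the paired bases, and the site is in exon 8 of 16, in the coding sequence, at chr17:81276020-81276029 on the minus strand of GRCh38.
CyCoNP probe 13: aggCATGGGGAAGgattagg
*SLC38A10* site: ctgtgggCTTCCCCATGatgatcc
For comparison, the probe and site of *SLC3A2* are those of the member whose level followed *SLC38A10* most closely. This site is in exon 4 of 13, in the coding sequence, at chr11:62881989-62881998 on the plus strand.
CyCoNP probe 9: gatcctgcgaAGCAAGTCAG
*SLC3A2* site: gctcagaCTGACTTGCTgcagatc

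The stretch in *SLC38A10* was 10 bases long. Of the 12527 tested genes with a GENCODE transcript, 70.6% had a stretch of at least this length, and 10 bases was also the median. Among the 10 genes the longest stretch was 12 bases, in *SLC38A7*, a length that 10.1% of tested genes reached. *SLC38A7* was at 3.97 and 7.77 CPM in CyCoNP PD and at 11.1 and 6.31 CPM in input, and these groups overlapped. With the LacZ probes *SLC38A10* shared 8 bases, and 84.3% of tested genes had at least 8. Against the CyCoNP RNA, *SLC38A10* transcripts held a longest exact complement of 13 bases, listed in a non-coding transcript of the gene. The median of tested genes was 14, and 69.2% had at least 13. *SLC3A2*, with 26 bases in a non-coding transcript, held the longest of the 10, and 8.11% of tested genes reached that length. *SLC38A1* held 22 bases, also in a non-coding transcript. These stretches are a description of letters, and pairing with mismatches was not searched. A relation of their length to recovery was not tested.

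CyCoNP was studied for its binding of miR-4492, so the seed of this microRNA, bases 2 to 8, was searched in the transcripts. The capitals mark the seed in the first line and its complement in the second.
miR-4492: gGGGCUGGgcgcgcgcc
*SLC38A10* site: tggttggcCCAGCCCtccattgt
*SLC38A10* held 1 match to CCAGCCC in its canonical transcript, in the 3′ UTR, in exon 16 of 16, at chr17:81244883-81244889 on the minus strand. *SLC7A1* held 3 matches, *SLC38A7* 2, *SLC38A2* 1 and *SLC1A5* 1, and the other 5 members held 0. Only the transcript strand was searched. A match is common, since 45.6% of 10485 tested coding genes had at least 1 in the canonical transcript and 22.9% had at least 1 in the 3′ UTR. *SLC7A1*, with the most, was at 185 and 254 CPM in CyCoNP PD against 224 and 321 CPM in input. A relation of seed matches to recovery was not tested.

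*SLC38A10* (ENSG00000157637) is a minus-strand gene of chromosome 17, between positions 81244811 and 81295547 of GRCh38. In input it had 3 and 4 counts, which are 4.18 CPM (95% Wilson interval 1.42 to 12.3) and 5.05 CPM (1.96 to 13.0). In CyCoNP PD it had 302 and 54 counts, which are 200 CPM (178 to 224) and 105 CPM (80.4 to 137). In LacZ PD it had 0 and 2 counts, the second being 14.3 CPM (3.91 to 52.0). Both CyCoNP PD libraries lay above the intervals of both input libraries and of LacZ PD 2. The gene was selected on its high level in CyCoNP PD, so this is a description. The intervals cover counting error only. LacZ PD 1 does not separate, because its 0 counts allow up to 204 CPM by the same interval and 159 CPM by the limit of 3 counts, about the level in CyCoNP PD. The 2 CyCoNP PD libraries differed from each other by more than their counting intervals.

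After TMM normalization *SLC38A10* was at 5.24 ± 1.17 CPM in input, 7.15 ± 10.1 CPM in LacZ PD and 181 ± 86.0 CPM in CyCoNP PD (SD, n = 2 each). In this order, input and LacZ PD differed by less than the spread of LacZ PD. CyCoNP PD stood above both by more than its own spread, which describes the pattern on which the gene was selected. The fitted log2 fold change in CyCoNP PD against input was 5.06 (standard error 0.81), a ratio of 33.3. CyCoNP PD 1 was 43.3 times and CyCoNP PD 2 was 22.7 times the mean input level in CPM. The pooled counts gave a ratio of 37.9 against input (95% interval 18.2 to 94.9, counting error only). Against LacZ PD, the pooled ratio was 14.0 with an interval of 3.84 to 116, since it rests on 2 LacZ PD counts. The fitted log2 fold change against LacZ PD was 4.01 (standard error 0.98), and without LacZ PD replicate 2, where the control is left with 0 counts, the fit gave 9.81, which depends on the prior count and is not a measured fold. *SLC38A10* ranked 77 of the 12565 genes by log2 fold change against input.

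**Figure D1:**
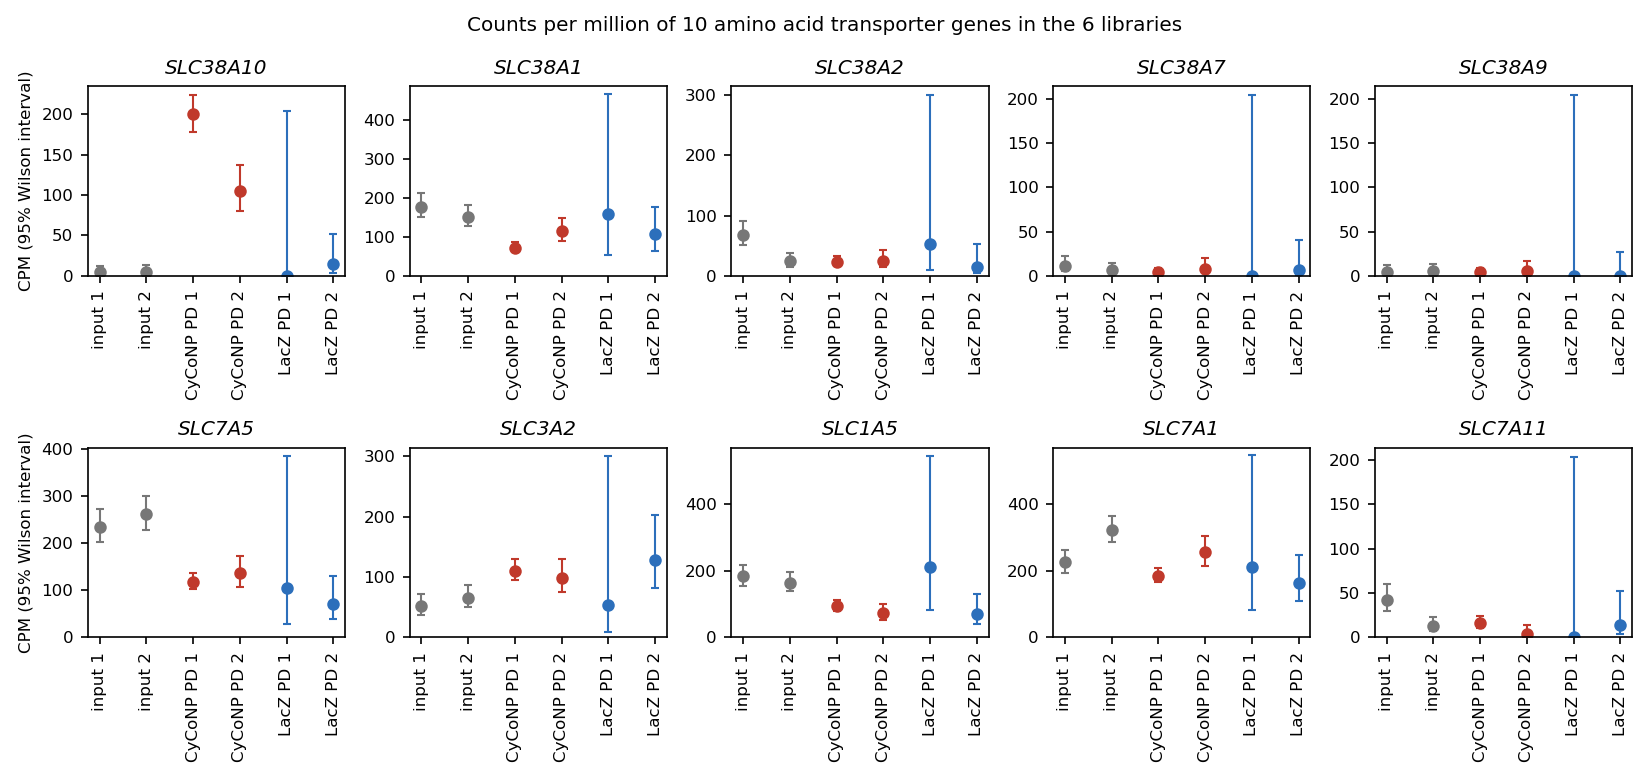
Each panel shows 1 gene, with the CPM of each library on a linear axis from 0 and bars for the 95% Wilson interval of the count. *SLC38A10* reaches 200 and 105 CPM in CyCoNP PD and stays at 4.18 and 5.05 CPM in input, a pattern seen in no other panel, and the wide bars of LacZ PD 1 come from its 18870 counts.

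The canonical *SLC38A10* transcript has 4491 bases and 1119 codons, against 462 to 561 codons in the 4 other SLC38 members examined. Its GC content was 63.9%, where the median of tested coding genes was 47.6% and 5.14% of them were at least as rich. *SLC1A5*, at 61.3%, and *SLC7A5*, at 61.2%, came next among the 10. Both had lower levels in each CyCoNP PD library than in each input library. Whether base composition bears on recovery was not tested. Lengths and base composition refer to the annotated transcripts and were not measured in the reads.

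None of the other 9 transporters was called in CyCoNP PD against input with edgeR, where called genes had an adjusted p under 0.05 together with a log2 fold change of over 1 in size. The background was 0.127% of tested genes called. At an unadjusted p under 0.05 there were also 0 of 9, and the 9 adjusted p-values were each 1. In edgeR, 3.08% of all tested genes were higher and 2.32% were lower at that unadjusted level. DESeq2 called 0 of the 9 against a background of 0.573%, and edgeR with the replicate number as a block called 0 against 2.26%. The median log2 fold change of the 9 was -0.76, with a range from -1.19 to 0.89, while the median of all tested genes was -0.01. With 9 genes, backgrounds of this size leave few calls to be had, so the values of the single genes carry the description.

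Among the SLC38 relatives none approached the *SLC38A10* ratio. *SLC38A1*, a glutamine carrier of the plasma membrane, had 128 and 120 input counts, 110 and 59 counts in CyCoNP PD, and 3 and 15 counts in LacZ PD. In CPM these were 178 and 152, 72.7 and 115, and 159 and 107, so both CyCoNP PD libraries were below both input libraries and LacZ PD overlapped with both groups. Its log2 fold change in CyCoNP PD against input was -0.76 (standard error 0.60, edgeR adjusted p = 1), within 2 standard errors of 0.

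*SLC38A2*, the carrier of the same kind that cells induce when amino acids run short, was at 68.3 and 24 CPM in input, 23.1 and 25.2 CPM in CyCoNP PD, and 53.0 and 14.3 CPM in LacZ PD. Input 1 stood above input 2 and both CyCoNP PD libraries, which were within a few CPM of each other, and the LacZ PD values rest on 1 and 2 counts. The log2 fold change was -0.82 (standard error 0.68), and it was -0.02 without input replicate 1 and -1.34 without input replicate 2.

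The lysosomal relatives were near the limit of detection. *SLC38A7* had 8 and 5 input counts, 6 and 4 counts in CyCoNP PD, and 0 and 1 counts in LacZ PD. *SLC38A9* had 3 and 4 counts in input, the same as *SLC38A10*, but 6 and 3 in CyCoNP PD where *SLC38A10* had 302 and 54, and 0 in both LacZ PD libraries. *SLC38A10* was selected on its CyCoNP PD level, so this difference between the 2 genes is a description. Input counts of 3 and 4 do not establish equal input levels. The pooled ratio of *SLC38A9* in CyCoNP PD over input was 0.958 (95% interval 0.317 to 3.03), and that of *SLC38A7* was 0.573 (0.225 to 1.41). A change of a few fold in either gene was not detectable at this depth, and in LacZ PD neither could be read.

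The members of the glutamine, leucine and cystine exchange system went in both directions without a call. *SLC3A2*, the heavy chain that carries *SLC7A5* and *SLC7A11* to the plasma membrane, was the only one of the 9 above both input libraries in both CyCoNP PD libraries. It had 37 and 52 input counts, 167 and 51 counts in CyCoNP PD, and 1 and 18 counts in LacZ PD. In CPM these were 51.5 and 65.7, 110 and 99.1, and 53.0 and 128. LacZ PD 2 was thus as high as CyCoNP PD. The log2 fold change was 0.89 against input (standard error 0.65, edgeR adjusted p = 1) and 0.40 against LacZ PD (standard error 0.71, edgeR adjusted p = 0.917).

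*SLC7A5*, the light chain that exchanges leucine and other large neutral amino acids, went the other way. It was at 235 and 263 CPM in input, 118 and 136 CPM in CyCoNP PD, and 106 and 71.4 CPM in LacZ PD, and all 4 pull-down libraries were below both input libraries. The log2 fold change was -0.92 in CyCoNP PD (standard error 0.59, edgeR adjusted p = 1) and -2.03 in LacZ PD (standard error 0.69, edgeR adjusted p = 0.607, unadjusted 0.0103). DESeq2 gave the LacZ PD value an adjusted p of 0.124, and edgeR with the replicate block gave 0.143. Against LacZ PD, *SLC7A5* in CyCoNP PD had a log2 fold change of 1.12 (standard error 0.69, edgeR adjusted p = 0.871).

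The counts of *SLC7A5* over those of its partner *SLC3A2* were 4.57 and 4 in input, 1.07 and 1.37 in CyCoNP PD, with 2 and 0.556 in LacZ PD. The ratio was lower in all 4 pull-down libraries than in both input libraries, and the groups CyCoNP PD and LacZ PD overlapped. This ratio was computed after the values were seen and was not tested. In CyCoNP PD it restates the directions of the 2 genes given above. The share of other gene pairs that part in this way was not computed. The LacZ PD ratios rest on 2 and 1 counts in replicate 1 and on 10 and 18 in replicate 2.

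*SLC1A5*, an exchanger of glutamine and other small neutral amino acids, was at 184 and 164 CPM in input, 94.6 and 71.9 CPM in CyCoNP PD, and 212 and 71.4 CPM in LacZ PD. Both CyCoNP PD libraries were below both input libraries, and LacZ PD spanned both groups. The log2 fold change against input was -0.98 (standard error 0.60, edgeR adjusted p = 1), and with the replicate block the unadjusted p was 0.0475 and the adjusted p 0.462.

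*SLC7A1*, which brings arginine and lysine into the cell, had 161 and 254 input counts, 280 and 131 counts in CyCoNP PD, and 4 and 23 counts in LacZ PD. Its log2 fold change against input was -0.27 (standard error 0.60), and the CyCoNP PD and input libraries overlapped. *SLC7A11*, which takes up cystine for glutathione synthesis, had 30 and 10 input counts, 24 and 2 counts in CyCoNP PD, and 0 and 2 counts in LacZ PD. Here replicate 1 exceeded replicate 2 in both input and CyCoNP PD, as with the mesenchymal markers, and the log2 fold change was -1.19 (standard error 0.86). It was -0.25 without input replicate 1, -1.76 without input replicate 2, -2.63 without CyCoNP PD replicate 1 and -0.63 without CyCoNP PD replicate 2.

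In CyCoNP PD against input, 1 of the 9 genes lay above both input libraries in both CyCoNP PD libraries and 3 lay below, *SLC38A1*, *SLC7A5* and *SLC1A5*. Among all tested genes 15.9% lay above and 20.3% below in this way, so 1 of 9 above is near the background, and 3 of 9 is a small count. The pooled count ratios of *SLC38A1*, *SLC7A5* and *SLC1A5* were 0.508 (95% interval 0.415 to 0.620), 0.490 (0.416 to 0.577) and 0.512 (0.421 to 0.621), and that of *SLC3A2* was 1.82 (1.42 to 2.36). These intervals cover counting error and not the spread between libraries, which the fit includes.

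The control pull-down gave no call among the 9 either. In LacZ PD against input, edgeR called 0 of 9 with 0% of all tested genes called, DESeq2 called 0 against 0.43%, and edgeR with the block called 0 against 0.923%. At an unadjusted p under 0.05 in edgeR, *SLC7A5* was lower, 1 of the 9, and 6.28% of all tested genes were. The median log2 fold change of the 9 was -1.10 beside -0.68 for all genes. In CyCoNP PD against LacZ PD edgeR called 0 of 9, with 0% called in all. DESeq2 called 0 against 0.302%, and the fit with the block called 0 against 0.772%. The count at an unadjusted p under 0.05 was 0 with each, where edgeR had 4.74% of all tested genes higher. These comparisons share libraries and are given side by side, not as independent results.

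Beyond the 10, a list of 58 further amino acid transporters held 21 tested genes. The other 37 had at most 9 counts in total, and 25 of them had 0 counts. In CyCoNP PD against input, edgeR, DESeq2 and the block called 0.127%, 0.573% and 2.26% of all tested genes. The shares in the LacZ PD comparisons were the smaller ones given above. With edgeR, DESeq2 and the block, 0 of the 21 were called in CyCoNP PD against input, in LacZ PD against input and in CyCoNP PD against LacZ PD. At an unadjusted p under 0.05 edgeR counted 0, 0 and 1, the last being *SLC7A14*, with 14 and 3 input counts, 27 and 13 counts in CyCoNP PD and 0 in both LacZ PD libraries. Of all tested genes, 4.74% were higher at that level in CyCoNP PD against LacZ PD. The shares were 3.08% higher and 2.32% lower in CyCoNP PD against input, and 6.28% lower in LacZ PD against input. The median log2 fold change of the 21 genes in CyCoNP PD against input was -0.17, with 10 of 21 above 0. Over all 30 tested transporters other than *SLC38A10*, 12 had a log2 fold change above 0 and 2 had one above 1.

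The nearest of these to *SLC38A10* was *SLC25A38*, the mitochondrial glycine carrier used in heme synthesis, with 1 and 2 input counts, 11 and 6 counts in CyCoNP PD, and 0 and 1 counts in LacZ PD. In CyCoNP PD its log2 fold change was 2.16 (standard error 1.21, edgeR adjusted p = 1). *SLC25A22*, a mitochondrial glutamate carrier, had 5 and 4, 16 and 12, and 0 and 3 counts in the same order, with a log2 fold change of 1.48 (standard error 0.93). In LacZ PD 2 it was at 21.4 CPM, within the range of CyCoNP PD, 10.6 to 23.3 CPM. *SLC7A14*, a lysosomal member of the cationic family, had a log2 fold change of 0.98 (standard error 0.89).

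At the lower end, *SLC25A44*, a mitochondrial carrier of branched-chain amino acids, had 9 and 4 input counts and 6 and 0 counts in CyCoNP PD. *SLC1A4*, a carrier of serine and alanine, had 6 and 1 input counts and 1 and 2 counts in CyCoNP PD, and *SLC38A11*, a further SLC38 relative, had 5 and 3 and 7 and 0. Their log2 fold changes were -1.63, -1.18 and -0.77, each within 2 standard errors of 0. Of the 21 genes, *SLC25A22* and *SLC25A38* lay above both input libraries in both CyCoNP PD libraries, and *SLC25A44* and *SFXN1*, a mitochondrial serine carrier, lay below, where the shares of all tested genes were the 15.9% and 20.3% given above. The taurine carrier *SLC6A6* followed the replicate number, with 30 and 1 input counts and 53 and 1 counts in CyCoNP PD, as the mesenchymal markers did.

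**Figure D2:**
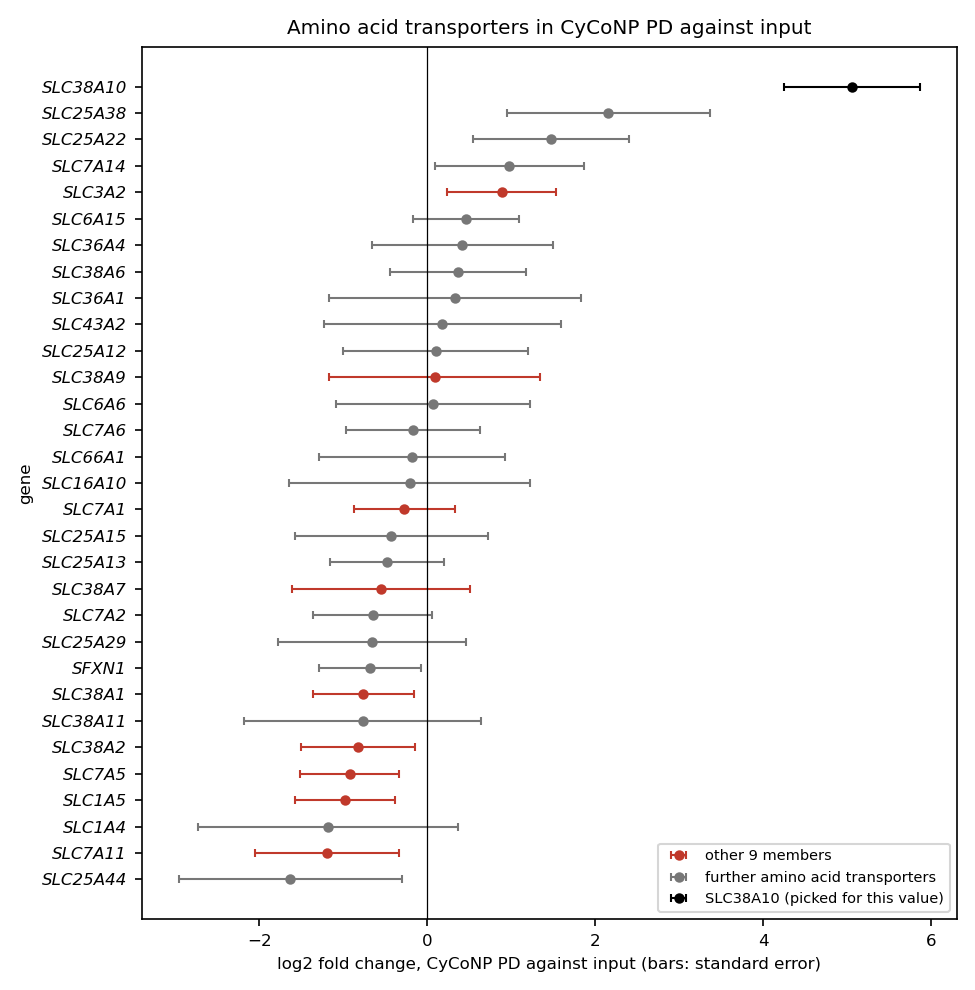
The points are the log2 fold changes of the 31 tested amino acid transporters in CyCoNP PD against input from the edgeR fit, and the bars are standard errors. *SLC38A10*, selected on this value, stands at 5.06, and the other 30 lie between -1.63 and 2.16.

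The transporters feed a sensing system at the lysosome, in which the Rag GTPases, Ragulator and the GATOR and KICSTOR complexes pass amino acid levels on to mTORC1. Of 35 genes of this system 34 were tested and 0 were called in CyCoNP PD against input with edgeR, DESeq2 or the block. The shares of all tested genes called were 0.127%, 0.573% and 2.26%. The log2 fold change was above 0 in 16 of the 34 genes, and their median was -0.11. At an unadjusted p under 0.05, 1 of the 34 was lower, as were 2.32% of all tested genes. *MTOR*, the kinase itself, had 27 and 57 input counts, 35 and 5 counts in CyCoNP PD, and 0 and 1 counts in LacZ PD. Its log2 fold change was -1.61 (standard error 0.72, edgeR adjusted p = 0.891). It was that gene, with an unadjusted p of 0.0418. The counts of *RPTOR*, the mTORC1 scaffold, were 2 and 4 in input and 3 and 0 in CyCoNP PD, and those of *FNIP1*, a partner of folliculin, were 18 and 14 and 8 and 7.

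At the upper end of that list, *SESN1*, a sestrin of the leucine-sensing family, had 31 and 6 input counts, 175 and 14 counts in CyCoNP PD, and 1 and 1 counts in LacZ PD. Its log2 fold change was 1.66 (standard error 0.86, edgeR adjusted p = 1), and replicate 1 exceeded replicate 2 in both groups. *LAMTOR3*, a Ragulator subunit, had 9 and 8 input counts, 38 and 18 counts in CyCoNP PD and 0 in both LacZ PD libraries, and its log2 fold change was 1.45 (standard error 0.76). The related *SESN3* had 123 and 44 input counts, 72 and 71 counts in CyCoNP PD and 0 in both LacZ PD libraries. It was the only gene of the list called in a LacZ PD comparison, and only by edgeR with the replicate block. The adjusted p was 0.00442 for LacZ PD against input and 0.00431 for CyCoNP PD against LacZ PD. That fit called 0.923% and 0.772% of all tested genes in these comparisons. Without the block edgeR called *SESN3* in neither.

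When amino acids run short, ATF4 raises the genes for amino acid synthesis, tRNA charging and several of these transporters. Of 28 genes of this response 26 were tested. In CyCoNP PD against input, edgeR, DESeq2 and the block called 0.127%, 0.573% and 2.26% of all tested genes, and each called 0 of the 26. The median log2 fold change was 0.33, with 18 of 26 above 0, and 2 genes, *GPT2* and *ATF5*, were higher at an unadjusted p under 0.05, as were 3.08% of all tested genes. *GPT2*, a mitochondrial alanine transaminase, had 16 and 10 input counts, 64 and 51 counts in CyCoNP PD, and 0 and 2 counts in LacZ PD. In both CyCoNP PD libraries it was above both input libraries and LacZ PD 2, with a log2 fold change of 2.06 (standard error 0.72, edgeR adjusted p = 0.603). The adjusted p was 0.708 with DESeq2 and 0.059 with the replicate block, so it was called in neither.

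*ATF5*, a transcription factor of the response, had 45 and 58 input counts, 116 and 171 counts in CyCoNP PD, and 3 and 7 counts in LacZ PD. In CPM it was at 76.7 and 332 in CyCoNP PD, so the libraries differed more from each other than replicate 1 differed from input. Its fitted log2 fold change was 1.61 (standard error 0.72, edgeR adjusted p = 0.895). *CBS*, which forms cystathionine on the way to cysteine, had a log2 fold change of 0.93 (standard error 0.64), with 43.6 and 56.3 CPM in CyCoNP PD and 53.0 and 57.1 CPM in LacZ PD. The lowest were *CEBPB* at -1.54, *STC2*, a secreted stanniocalcin, at -0.74 and *PSPH*, the last enzyme of serine synthesis, at -0.64, and none of these was called.

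**Figure D3:**
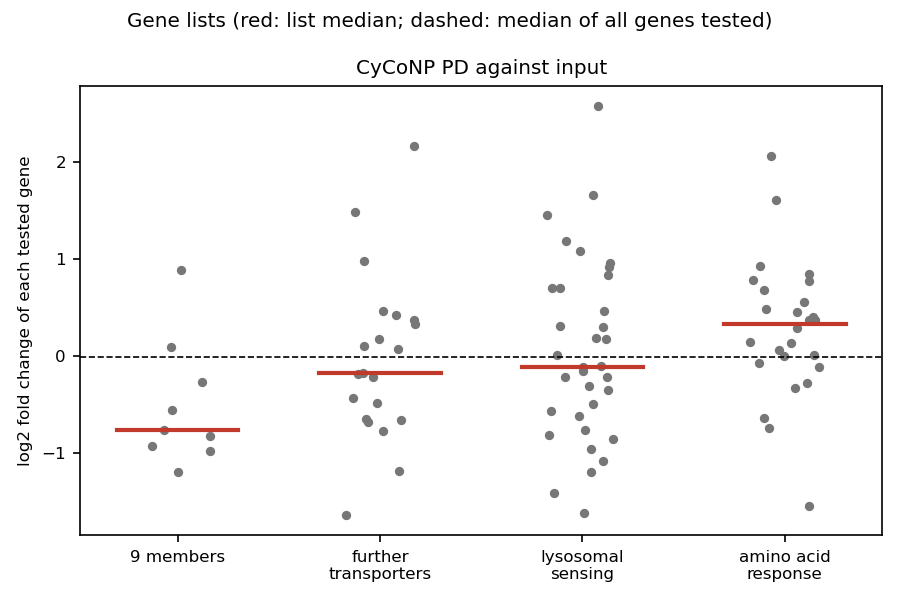
Each point is the log2 fold change of a tested gene in CyCoNP PD against input, by list, with the list median in red and the median of all 12565 tested genes, -0.01, as a dashed line. The list medians are -0.76 for the 9 transporters, -0.17 for the further transporters, -0.11 for lysosomal sensing and 0.33 for the amino acid response.

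The genes whose levels followed *SLC38A10* most closely over the 6 libraries were not transporters. By Pearson's r of TMM-normalized log2 CPM they were *ARC* (0.996), *CFAP298* (0.992), *LINC01399* (0.987), *SRSF5* (0.981) and CyCoNP itself (0.979). The 6 points are 3 groups of 2 libraries of unequal depth, and 116 genes had r above 0.9, so these values describe a shared pattern and were not tested. *ARC*, an activity-regulated gene of neurons, had 3 and 3 input counts, 164 and 43 counts in CyCoNP PD, and 0 and 2 counts in LacZ PD. *LINC01399*, a long non-coding RNA, had 3 and 2, 57 and 20, and 0 and 1. The splicing factor *SRSF5*, at 161 and 132 CPM in CyCoNP PD against 89.1 and 72.0 CPM in input, had the same shape at a far smaller ratio, as r does not measure the size of a change. Among the other 9 members r was highest in *SLC3A2* at 0.81, rank 456, and lowest in *SLC1A5* at -0.47.

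None of the 5 tested genes within 50 kb of *SLC38A10* was called in CyCoNP PD against input. Of 10 annotated genes that overlap it or lie within 50 kb, 3 had 0 counts in all libraries and 5 were tested. *NDUFAF8*, a mitochondrial complex I assembly factor, had 58 and 78 input counts, 143 and 37 counts in CyCoNP PD, and 1 and 9 counts in LacZ PD, with a log2 fold change of -0.04 (standard error 0.61). *TEPSIN*, an adaptor-associated protein of vesicle traffic, had 14 and 9 input counts, 5 and 3 counts in CyCoNP PD and 0 in both LacZ PD libraries, with a log2 fold change of -1.71 (standard error 1.03). *LINC00482*, *RENO1* and *CEP131* had log2 fold changes of 1.62, 0.14 and 0.54, each within 2 standard errors of 0, and *TMEM105*, with 1 and 3 input counts and 1 and 4 counts in CyCoNP PD, was not tested. With edgeR, DESeq2 and the block, 0 of the 5 were called, where the shares of all tested genes were 0.127%, 0.573% and 2.26%.

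The 2 genes that overlap *SLC38A10* lie on the opposite strand. The lncRNA ENSG00000276101 had 3 counts in CyCoNP PD 1 and 0 elsewhere, and ENSG00000279187 had 0 counts in all 6 libraries. Few reads were therefore assigned to an antisense neighbour, and reads that strand alone would separate cannot be told apart. The pseudogenes *SLC7A5P1* and *SLC7A5P2* had 0 counts in the 6 libraries, and how reads of *SLC7A5* were divided from them was not tested.

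**Figure D4:**
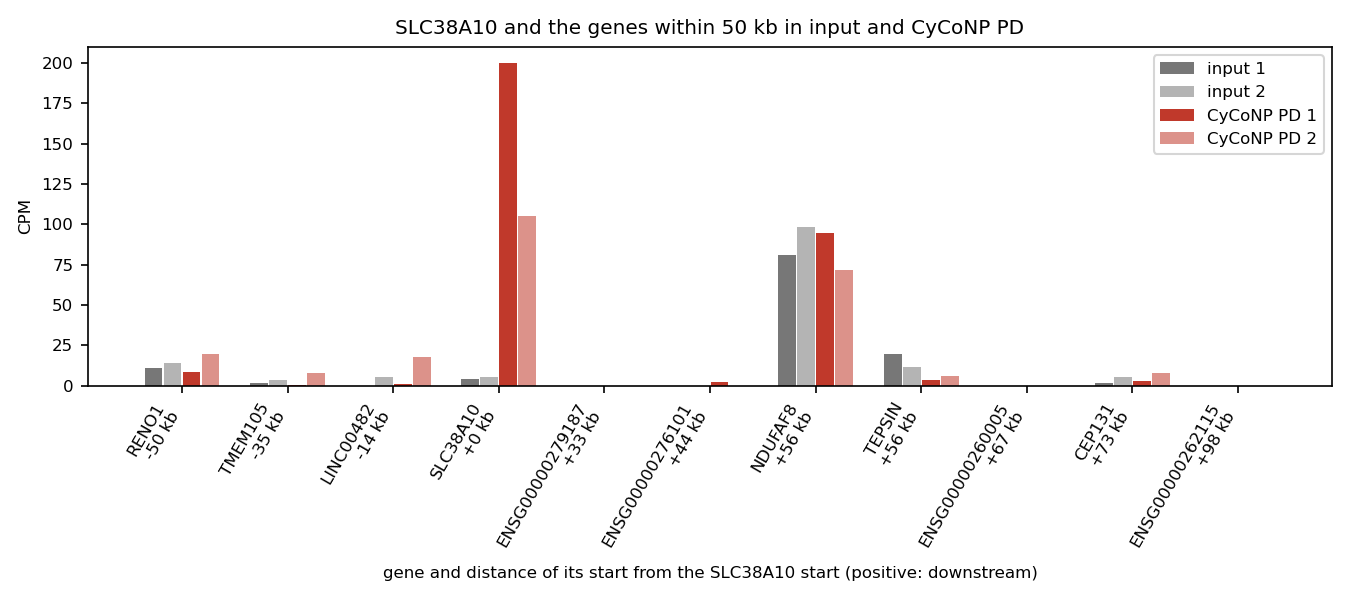
The bars are the CPM of *SLC38A10* and the 10 genes within 50 kb in the 2 input and 2 CyCoNP PD libraries, ordered by the distance of their start from that of *SLC38A10*. *SLC38A10* stands at 200 and 105 CPM in CyCoNP PD between *LINC00482* and its downstream neighbours, while the input and CyCoNP PD bars of *NDUFAF8* overlap in height.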

How the data were processed

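The libraries were made by PCR-cDNA barcoding and sequenced on a Nanopore flow cell. The authors removed short reads and reads of low quality, aligned the rest to GRCh38 with minimap2 2.24-r1122 and quantified Ensembl genes with Bambu, without new isoforms. They deposited whole-number counts per gene, not normalized, with 1 column per library. They also deposited the same table as CPM, which differed from the CPM computed here by at most 5.1e-11. The CPM printed in the text are these values. TMM-normalized CPM were computed here and are named as such. Whether Bambu used the strand of a read is not given in the sources used here, so reads of a gene and of an antisense partner were not told apart.

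A gene was tested if its counts over the 6 libraries summed to 10 or more, in R 4.3.3 with edgeR 4.0.16 (TMM, quasi-likelihood F test, the 3 groups in one fit, Benjamini-Hochberg adjustment over 12565 genes). Standard errors of log2 fold changes were derived from the F statistic. Fitted fold changes of genes with 0 counts in a group depend on the prior count and are not given as folds. DESeq2 1.42.0 was the other tool, and an adjusted p-value that it did not give was left out. Between libraries of one replicate number, the departures from each group mean had correlations over genes of 0.257 to 0.449. With 2 libraries per group only 3 of these correlations are distinct. The main edgeR fit and DESeq2 did not use the number. The fit with the number as a block was an alternative that treated libraries of one number as paired. No source used here says whether a number marks a shared extract. The study describes the 2 sequenced pull-downs as biological duplicates. Replicates were not copies of one library, since chi-square over degrees of freedom, taken over genes, was 18.4 between the input libraries, 14.3 between those of CyCoNP PD and 4.11 between those of LacZ PD.

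The members and the gene lists were chosen with earlier results of these data known. The genes named besides the members were, from each list, every called gene and the 3 highest and 3 lowest by log2 fold change in CyCoNP PD against input, the 5 genes that followed *SLC38A10* most closely, and the genes within 50 kb of it. For 1 gene that this names, values are not reported here. *SLC6A6*, *SFXN1* and *COL1A1* were named after their values were seen. Positions, transcripts and exons were those of GENCODE v44, which is on the authors' build but later than their annotation and gave a symbol to 12528 of the 12565 genes tested. The miR-4492 sequence came from RefSeq and the probe sequences from the study's list of oligonucleotides. Wilson intervals are at 95%, intervals of ratios are exact, and both cover counting error only. The CLIP, knockdown, RT-qPCR and cross-linked pull-down data are not analysed here.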

Additional observations from a re-analysis of the deposited data

How the results depend on the processing

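Under each alternative (library size alone, size factors as DESeq2 computes them, DESeq2 itself, no count filter, filterByExpr, only the 2 groups compared, the replicate block and each library left out in turn) the count of called amino acid transporters was 0 in the 3 comparisons. The replicate block changed no call among them. The log2 fold change of *SLC38A10* in CyCoNP PD against input was 4.97 to 5.08 across the other settings, 5 with the replicate block and 4.47 to 5.47 with single libraries left out. Against LacZ PD it was 3.41 to 9.81 with single libraries left out, the 9.81 coming without LacZ PD replicate 2, where the control has 0 counts.

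In CyCoNP PD against LacZ PD, uncalled values changed sign. *SLC38A1* was at -0.06 with DESeq2's size factors in edgeR, -0.41 with library size alone and -0.07 with DESeq2, *SLC3A2* at -0.01 with library size alone, and *SLC1A5* at -0.04 and -0.46 with the first of these and with library size. With a library left out, *SLC38A1* lay between -0.23 and 0.46, *SLC3A2* between -0.04 and 2.22 and *SLC1A5* between -0.10 and 0.48, with -0.09 as its other value below 0. *SLC7A11*, at 0.22 on 2 LacZ PD counts, was at -0.45 with the replicate block, and *SLC38A7*, at 0.22 on 1 LacZ PD count, was at -0.11 with DESeq2. In LacZ PD against input, *SLC3A2* lay between -1.31, without LacZ PD replicate 2, and 0.93. Against input in CyCoNP PD, *SLC38A9* was at -0.11 without input replicate 1 and -0.12 without CyCoNP PD replicate 2, with a highest value of 0.36, and *SLC7A1* was at 0.12 without input replicate 2, with a lowest value of -0.58. In the same comparison single libraries moved *SLC38A1* between -1.07 and -0.47, *SLC38A2* between -1.34 and -0.02, *SLC38A7* between -0.98 and -0.09 and *SLC7A11* between -2.63 and -0.25. None of these was called, and the cause was not tested.

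The number of all genes called in CyCoNP PD against input was 16, 6 with library size alone, 72 with DESeq2, 126 without a count filter, 0 with only the 2 groups compared, 284 with the replicate block and 0 to 119 with a library left out (0 without either LacZ PD library). In LacZ PD against input it was 0, and 54 with DESeq2, 36 without a filter, 22 with only the 2 groups, 116 with the block and up to 24 with a library left out. In CyCoNP PD against LacZ PD it was 0, and 1 with library size alone, 38 with DESeq2, 62 without a filter, 61 with only the 2 groups, 97 with the block and up to 61 with a library left out. The depth of LacZ PD limits what can be said of the control, as its libraries hold 18870 and 140115 counts.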
